A study of Sus scrofa with 23 samples.

Results

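The genes described here carry peptides to T cells or prepare those peptides inside the cell. They were SLA-DRA, SLA-DRB1 and SLA-DQB1, which are chains of the swine MHC class II molecules, B2M, the light chain of MHC class I, and IFI30, LGMN and CTSS, enzymes of the endosome and lysosome. These 7 genes were fixed by name, and every probe set annotated to 1 of them alone was taken from the deposited expression table. That gave 20 probe sets of 23999: 9 for B2M, 3 for SLA-DRB1, 3 for CTSS, 2 for IFI30 and 1 each for SLA-DRA, SLA-DQB1 and LGMN. A further 3 probe sets listed SLA-DRB1 together with a neighbouring locus symbol, LOC106504372, and are given separately.

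MHC class II molecules are pairs of an alpha and a beta chain that load peptides cut from engulfed protein in acidic vesicles and show them to CD4+ T cells. The invariant chain CD74 guides them there, cathepsins and legumain trim both the invariant chain and the cargo, the thiol reductase IFI30 opens disulfide bonds, and the transactivator CIITA switches on the class II genes. MHC class I molecules need B2M for folding and present peptides that the proteasome makes in the cytosol and that the TAP transporter brings into the endoplasmic reticulum. Macrophages carry both routes, and lipopolysaccharide (LPS), a cell wall component of Gram-negative bacteria, is a classical stimulus of these cells.

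The study measured macrophages grown from bone marrow of 3 Large White x Landrace F1 pigs with recombinant human CSF1, a macrophage growth factor. Cells of each pig were left without LPS (0 h) or were given LPS of Salmonella minnesota at 100 ng/ml for 2 h, 7 h or 24 h. Each pig and time had duplicate cultures, apart from pig 3 at 24 h with 1, which gave 23 arrays of a porcine Affymetrix design. Pigs 1 and 3 are labelled male and pig 2 female, their ages are not in the labels, and no group lacked CSF1, so all values refer to CSF1-grown cells. Values are log2 intensities, so a difference of 1 is a doubling of intensity. The array medians lay between 69.5 and 73.9 intensity units and the table as a whole between 2.67 and 14.91 log2 units.

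The sample labels did not match the arrays. The male-linked gene EIF1AY was at the level of the labelled sex on 15 of 23 arrays. Among all probe sets other than the members, 11 pairs of arrays were each other's nearest neighbour by correlation; all 11 stood in neighbouring columns of the table, and 0 were labelled duplicates. These similarities pair columns but give no times. An inferred order, adopted together with the choice of members, puts columns 1 to 6 at 0 h and columns 7 to 12 at 2 h. It puts columns 13 to 18 at 7 h and columns 19 to 23 at 24 h, with neighbouring columns as duplicate cultures of one pig. Under that order EIF1AY matched the pig's sex on 23 of 23 arrays. This checks which pairs are female, and neither the times of the runs nor pig 1 against pig 3. The order is not in the labels. The 4 runs of columns are therefore described without a test, the 3 column pairs of a run are called pair 1, pair 2 and pair 3, and tests were run only on the groups as labelled. The inflammatory cytokine TNF was at 5.42 to 6.10 in columns 1 to 6, 12.35 to 12.56 in columns 7 to 12, 10.06 to 11.30 in columns 13 to 18 and 6.20 to 10.66 in columns 19 to 23.

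SLA-DRA, the alpha chain of the DR molecule, spanned 4.11 log2 units over the 23 arrays. In columns 1 to 6, the inferred 0 h arrays, it ran from 9.30 to 10.54 with a median of 9.74. Columns 7 to 12, inferred as 2 h, held 10.11 to 11.61 with a median of 10.36. The lowest arrays of that run were below the highest of columns 1 to 6, so the runs overlapped. Columns 13 to 18, inferred as 7 h, held 11.46 to 13.04 with a median of 11.74. Columns 19 to 23, inferred as 24 h, held 11.45, 11.57, 13.35, 13.27 and 13.41. Every array of these last runs was above every array of columns 1 to 6. Pair by pair, SLA-DRA stood 0.56, 0.81 and 1.06 above columns 1 to 6 in columns 7 to 12, and 1.73, 2.37 and 2.55 above in columns 13 to 18. In columns 19 to 23 the excess was 1.77, 3.94 and 2.93. From columns 13 to 18 to columns 19 to 23, pair 1 differed by 0.04 and pair 3 by 0.38, while pair 2 was 1.57 higher.

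SLA-DQB1, the beta chain of the DQ molecule, had nearly the same profile. It ran from 9.67 to 10.63 in columns 1 to 6 (median 9.97), from 10.58 to 11.82 in columns 7 to 12 (median 10.75) and from 11.58 to 12.89 in columns 13 to 18 (median 11.66). Columns 19 to 23 held 11.60, 11.62, 12.84, 12.77 and 12.92. As for SLA-DRA, columns 7 to 12 overlapped with columns 1 to 6 and the later columns did not. The pair differences from columns 1 to 6 were 0.78, 0.84 and 1.12 in columns 7 to 12, then 1.67, 1.86 and 2.25, and in the last run 1.64, 3.05 and 2.30. Between columns 13 to 18 and columns 19 to 23, pairs 1 and 3 differed by -0.03 and 0.05 and pair 2 by 1.19.

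SLA-DRB1, the beta chain of the DR molecule, was measured by 1 bright probe set, Ssc.210.1.S1_a_at, and by a pair of dim ones. The bright one ran from 9.49 to 10.87 in columns 1 to 6 (median 10.24), from 10.09 to 11.71 in columns 7 to 12 (median 10.51) and from 10.90 to 12.61 in columns 13 to 18 (median 11.10). Columns 19 to 23 held 10.42, 10.38, 12.18, 12.10 and 12.46, of which the first pair lay within the range of columns 1 to 6. Columns 13 to 18 were above all of columns 1 to 6, though after quantile normalization these runs overlapped. The pair differences from columns 1 to 6 were 0.27, 0.59 and 0.76, then 0.76, 1.48 and 1.74, and in the last run 0.16, 2.55 and 1.62. Pair 1 of columns 19 to 23 was 0.60 below pair 1 of columns 13 to 18 (-0.60), and pair 2 was 1.07 above its counterpart.

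The class II values in columns 19 to 23 thus depended on the pair. That run has 5 columns, and its difference of medians from columns 1 to 6 moved with the pairs kept. It was 3.53 for SLA-DRA, a ratio of 11.55, and 1.47 without pair 2. For SLA-DQB1 it was 2.79, a ratio of 6.93, and 1.29 without pair 2. For SLA-DRB1 it was 1.87 and turned to -0.13 without pair 2, so no direction is given for its difference of medians in that run. These medians do not match pairs. Without pair 2 they weigh pair 1 above pair 3, which has a single column there. By matched pair SLA-DRB1 was higher at all 3 positions, by 0.16, 2.55 and 1.62.

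**Figure D1:**
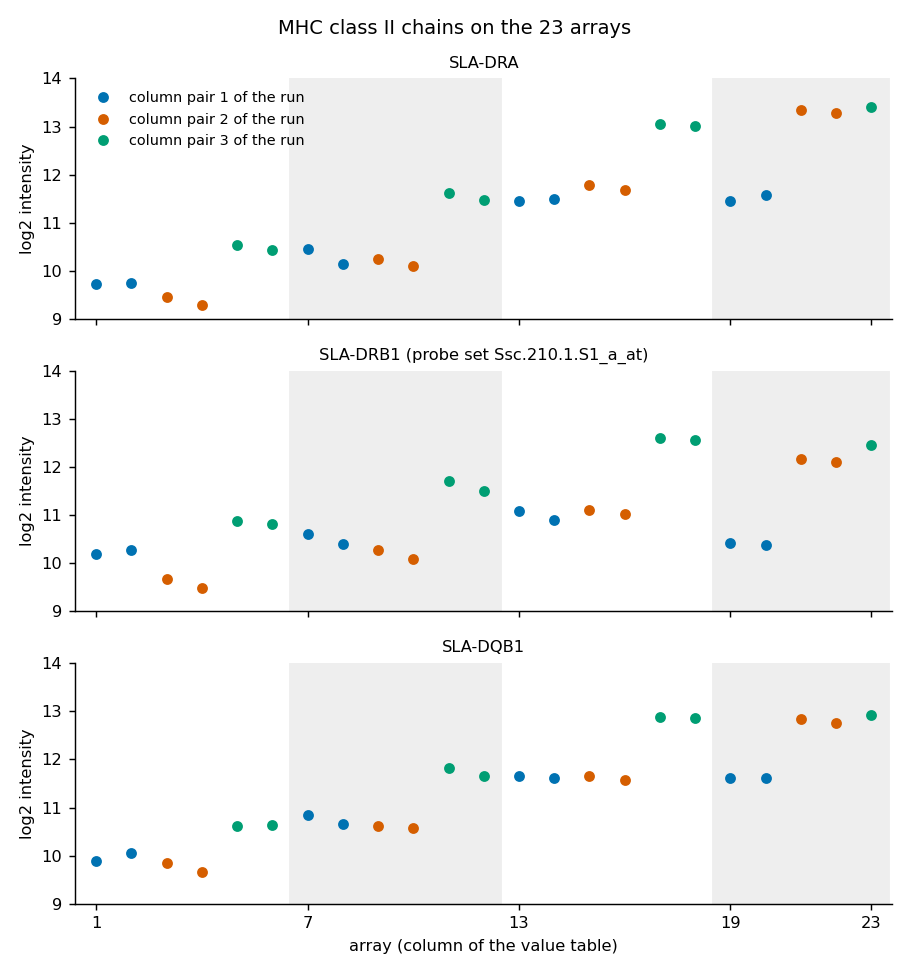
Log2 intensity of SLA-DRA, SLA-DRB1 (Ssc.210.1.S1_a_at) and SLA-DQB1 (vertical axis) on each of the 23 arrays in table order (horizontal axis), 1 point an array, with the runs of columns 1 to 6, 7 to 12, 13 to 18 and 19 to 23 on white and grey ground and column pairs in colour. Neighbouring points of a pair lie close together, pair 3 lies highest in every run, and pair 1 of the last run lies below the other arrays of that run in all 3 panels.

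Duplicate columns were close for these chains. Within the 11 most-similar pairs the median absolute difference was 0.11 for SLA-DRA, 0.07 for SLA-DQB1 and 0.08 for SLA-DRB1, and the largest were 0.31, 0.18 and 0.22. The pair position was a second source of variation. Pair 3, which the inferred order assigns to pig 3, was the highest of the 3 pairs in all 4 runs for SLA-DRA, SLA-DRB1 and SLA-DQB1, and also for B2M probe set Ssc.12348.1.S1_at and CTSS probe set Ssc.17203.3.S1_at. These were 5 of the 20 member probe sets, against 5.01% of all probe sets. In columns 1 to 6, before LPS in the inferred order, pair 3 of SLA-DRA averaged 10.49 against 9.74 and 9.37 for pairs 1 and 2.

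The remaining SLA-DRB1 probe sets carried less information or were shared. Ssc.16211.1.A1_at lay between 4.06 and 4.96 and Ssc.16211.1.S1_at between 3.66 and 4.15, both below the table median of 6.16. Of the probe sets that also list LOC106504372, Ssc.210.7.S1_x_at was the brightest. It read 8.58 to 10.19 in columns 1 to 6, 9.38 to 11.20 in columns 7 to 12 and 9.84 to 12.24 in columns 13 to 18. In columns 19 to 23 it read 10.27, 10.12, 10.76, 10.75 and 11.85. Its difference from Ssc.210.1.S1_a_at varied with the pair position. It was between -0.33 and -0.13 for pair 1 over the 4 runs, between -1.38 and -0.72 for pair 2, and between -0.71 and -0.39 for pair 3. Pair 2 had the widest difference in all 4 runs. SLA-DRB1 is a polymorphic gene with close relatives, and how far each probe set reads 1 gene or 1 allele was not tested.

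B2M had 9 probe sets that did not move as one. The brightest, Ssc.12348.1.S1_at, lay between 14.23 and 14.49 in columns 1 to 6, 14.24 and 14.54 in columns 7 to 12, 14.49 and 14.73 in columns 13 to 18, and 14.71 and 14.79 in columns 19 to 23. The last run was above all of columns 1 to 6, with pair differences of 0.44, 0.55 and 0.30. Its values stood close to the highest value of the whole table, 14.91, where an intensity has little room to rise. Ssc.12348.2.S1_at, which tracked it with r = 0.974 over the 23 arrays, had medians of 12.77, 12.89, 13.46 and 13.98 over the 4 runs. On this dimmer probe set the last run stood 1.05, 1.30 and 0.64 above columns 1 to 6 by pair, again with no overlap. Another probe set, Ssc.12809.4.S1_a_at, was higher in columns 19 to 23 without overlap, with medians of 9.05 in columns 1 to 6 and 9.50 there.

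Another 3 B2M probe sets went the other way. Ssc.7768.1.A1_at read 9.95 to 10.22 in columns 1 to 6, 9.99 to 10.23 in columns 7 to 12, 8.64 to 9.29 in columns 13 to 18 and 8.56 to 9.26 in columns 19 to 23. By pair it differed from columns 1 to 6 by -1.34, -0.93 and -1.25 in columns 13 to 18 and by -1.39, -1.42 and -0.79 in columns 19 to 23. Its correlation with Ssc.12348.1.S1_at over the arrays was -0.783. Ssc.17269.1.S1_at (medians 8.75, 8.35 and 8.53 in columns 1 to 6, 13 to 18 and 19 to 23) and Ssc.5896.1.S1_at (13.78, 13.67 and 13.63) were also lower without overlap in columns 13 to 18 and 19 to 23, and both overlapped after quantile normalization. The other 3 (Ssc.12809.5.A1_at, Ssc.19916.2.S1_a_at and Ssc.8925.1.S1_at) overlapped with columns 1 to 6 in every run, although Ssc.19916.2.S1_a_at was higher without overlap after quantile normalization, by 0.15 in columns 13 to 18 and 0.23 in columns 19 to 23. The symbol B2M belongs to 2 entries of the pig RefSeq gene table, and which transcript each of the 9 probe sets reads was not tested, so no direction is given for B2M over all its probe sets.

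**Figure D2:**
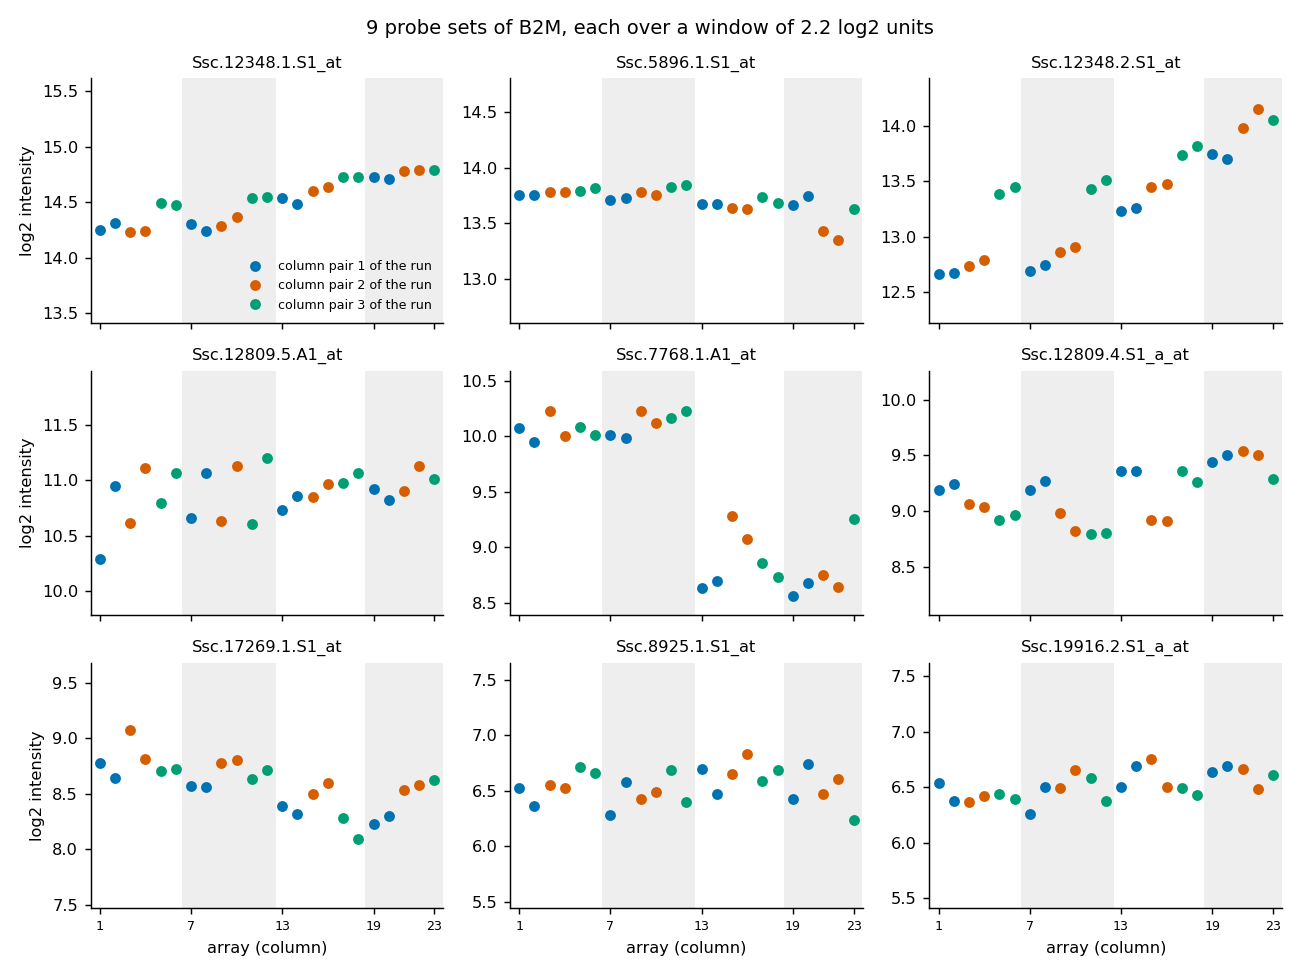
Log2 intensity (vertical axis, each panel over a window of 2.2 units) of the 9 B2M probe sets on the 23 arrays in table order (horizontal axis), 1 point an array, column pairs in colour and the runs on white and grey ground. Ssc.12348.1.S1_at and Ssc.12348.2.S1_at are higher in columns 19 to 23 than in columns 1 to 6, and Ssc.7768.1.A1_at is lower in columns 13 to 23, at 8.56 to 9.29.

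The lysosomal enzymes each had a bright probe set. Those of CTSS and LGMN stood, like the brightest of B2M, close to the highest value of the table, 14.91, so small differences there are no measure of stability. CTSS, cathepsin S, which cleaves the invariant chain in antigen presenting cells, was read by Ssc.17203.3.S1_at at 14.19 to 14.31 in columns 1 to 6, 14.20 to 14.28 in columns 7 to 12, 14.35 to 14.43 in columns 13 to 18 and 14.35 to 14.42 in columns 19 to 23. The later runs did not overlap with columns 1 to 6, and the ratios of their medians were 1.115 and 1.09 on this bright probe set. The pair differences were 0.14, 0.17 and 0.14 in columns 13 to 18 and 0.11, 0.17 and 0.14 in columns 19 to 23, against a median duplicate difference of 0.02. Ssc.17203.1.A1_at lay between 13.53 and 14.04 and Ssc.17203.2.S1_at between 7.77 and 8.69, and both overlapped between columns 1 to 6 and each later run.

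LGMN, the asparaginyl endopeptidase legumain, lay between 13.91 and 14.35, with medians of 14.13, 14.11, 14.25 and 14.25 over the 4 runs and overlap in every comparison. After quantile normalization LGMN in columns 19 to 23 no longer overlapped with columns 1 to 6, with a difference of 0.16, nor did columns 13 to 18 with columns 7 to 12, with a difference of 0.18. IFI30, the lysosomal thiol reductase, lay between 13.23 and 13.89 on its bright probe set Ssc.809.1.S1_at, with medians of 13.70, 13.55, 13.64 and 13.38, and overlapped in every comparison. Pair 3 was the lowest pair of this IFI30 probe set in all 4 runs, at 13.33, 13.34, 13.53 and 13.25. It was also the lowest pair of LGMN in all 4 runs, at 14.01, 13.92, 14.14 and 14.17. Both are the reverse of its place for the class II chains. The share of all probe sets with pair 3 lowest in every run was not counted.

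The dim IFI30 probe set, Ssc.30758.1.S1_s_at, followed neither the runs nor the pairs. It read 6.61 to 7.12 on the odd columns and 7.37 to 7.92 on the even columns. In all 11 pairs the second column was higher, by 0.35 to 1.23 with a median of 0.84. It was 1 of 12 probe sets, 0.05% of all, in which every second column of a pair was above every first column. Its correlation with the bright IFI30 probe set over the 23 arrays was 0.009. The odd columns are those labelled 0 h or 7 h and the even columns those labelled 2 h or 24 h.

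**Figure D3:**
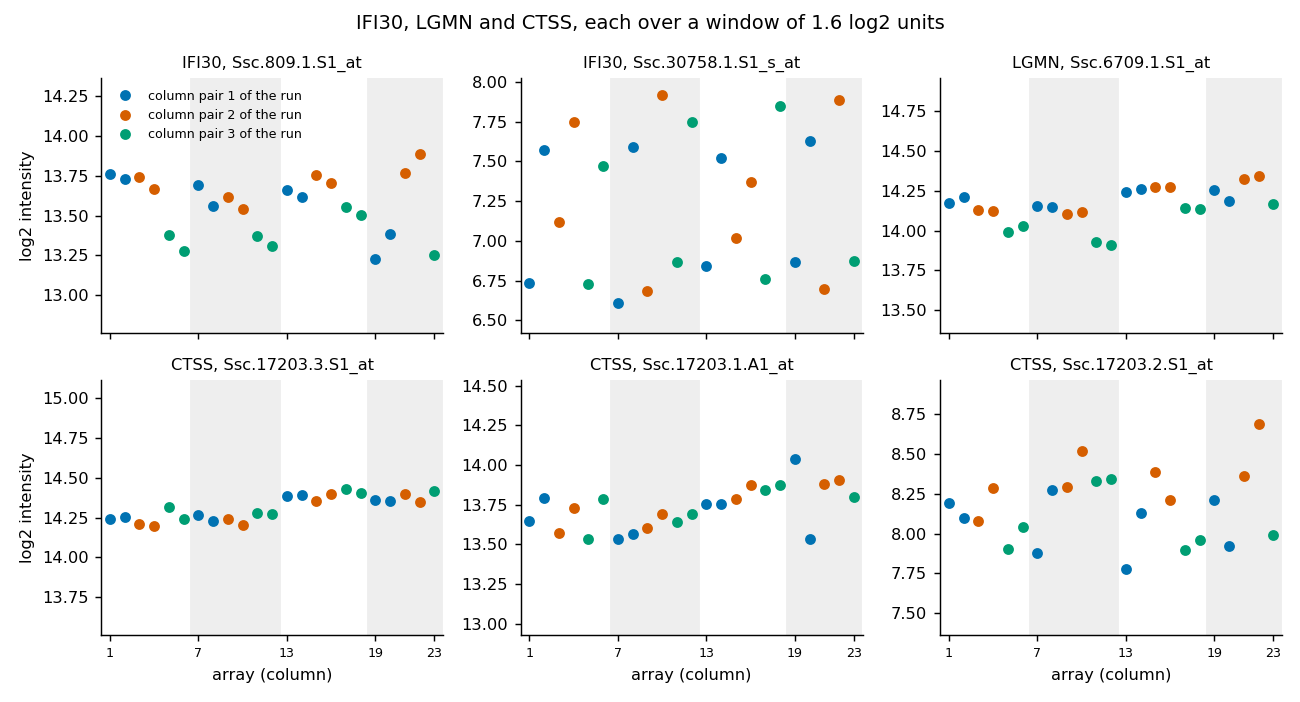
Log2 intensity (vertical axis, each panel over a window of 1.6 units) of the IFI30, LGMN and CTSS probe sets on the 23 arrays in table order (horizontal axis), 1 point an array, column pairs in colour and the runs on white and grey ground. CTSS Ssc.17203.3.S1_at steps from 14.19 to 14.31 in columns 1 to 6 up to 14.35 to 14.43 in columns 13 to 23, and the dim IFI30 probe set alternates between 6.61 to 7.12 and 7.37 to 7.92.

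The counts of members that stood apart between runs are given beside the share over the whole array. A probe set is counted when all its arrays in one run lie above, or all below, those of the other. Between columns 7 to 12 and columns 1 to 6, 0 of 20 member probe sets were higher without overlap, where 4.55% of all probe sets were, and 0 were lower, where 8.05% were. In columns 13 to 18 the count was 5 of 20 higher (background 11.2%): SLA-DRA, SLA-DQB1, the bright SLA-DRB1 probe set, the dim SLA-DRB1 probe set Ssc.16211.1.A1_at and CTSS Ssc.17203.3.S1_at. Both SLA-DRB1 probe sets overlapped after quantile normalization. The 3 lower (background 18.5%) were the B2M probe sets named above. In columns 19 to 23 the count was 6 higher (background 9.68%), namely SLA-DRA, SLA-DQB1, B2M with 3 and CTSS with 1, and 3 lower (background 15.3%), which were again B2M. Between columns 13 to 18 and columns 7 to 12, 2 were higher (background 9.0%), both of CTSS, and 1 was lower (background 12.2%), B2M Ssc.7768.1.A1_at. Between the last runs 0 were higher (background 8.97%) and 0 lower (background 8.11%). The comparisons with columns 1 to 6 share those arrays.

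A second count used the size of the difference. SLA-DRA and SLA-DQB1 were the members at least 1 log2 unit higher at all 3 pair positions, in columns 13 to 18 (3.38% of all probe sets) and in columns 19 to 23 (2.3%), while SLA-DRB1 was below 1 for pair 1 in both runs. SLA-DRA alone was so between columns 13 to 18 and columns 7 to 12 (1.78%). In columns 7 to 12 against columns 1 to 6 the count was 0 of 20 (1.23%), and between the last runs 0 of 20 (0.938%). The median difference from columns 1 to 6 over the 20 member probe sets was 0.04, 0.13 and 0.13 in the later runs, beside -0.01, 0.01 and 0.00 over all 23999.

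**Figure D4:**
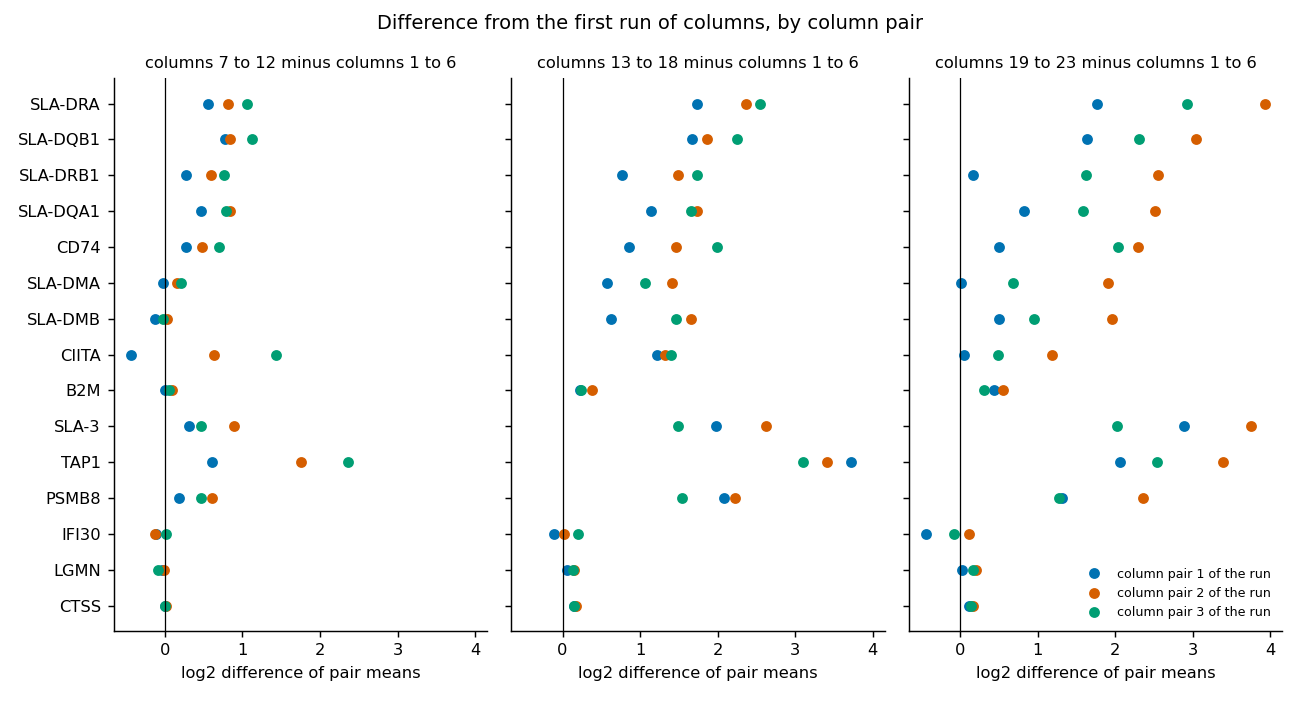
Difference in mean log2 intensity from the same column pair of columns 1 to 6 (horizontal axis) for members and other genes of the pathway (vertical axis, the highest-mean probe set of each gene), 1 point a column pair, for columns 7 to 12, 13 to 18 and 19 to 23. SLA-DRA, SLA-DQB1 and SLA-DRB1 spread from 0.16 to 3.94 in the last panel, while LGMN and CTSS stay near 0 in all panels and IFI30 lies on both sides of 0.

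The other genes of both routes were taken from a list of 50, of which 35 had a probe set of their own. Without overlap, 4 were higher and 2 lower in columns 7 to 12 (5.47% and 11.4% of all 6765 genes), 14 higher and 4 lower in columns 13 to 18 (13.9% and 28.0%), and 15 higher and 5 lower in columns 19 to 23 (13.9% and 22.4%). Against columns 7 to 12, 11 were higher and 1 lower in columns 13 to 18 (12.3% and 19.4%), and between the last runs 6 were higher and 2 lower (14.1% and 10.6%). The class I genes had median differences from columns 1 to 6 of 0.22, 0.91 and 1.50 over their 14 measured members, and all genes -0.04, -0.05 and -0.03. The 10 class II genes had 0.39, 0.82 and 0.59. The 9 proteases and protease inhibitors had -0.04, -0.01 and 0.03, with genes on both sides: in columns 19 to 23 CTSC differed by 0.81 and CTSD by -0.43, both without overlap.

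In columns 7 to 12 the highest differences of medians in the list were those of the peptide transporter subunit TAP1 (1.75, and 1.06 without pair 3), the class I gene SLA-7 (0.84) and the lipid antigen protein CD1E (0.66). The lowest were the cysteine protease inhibitor CST3 (-0.38), the ubiquitin ligase MARCHF8 (-0.32, and -0.54 without pair 1) and the transcription factor subunit NFYC (-0.20). In columns 13 to 18 TAP1 (3.35), the immunoproteasome subunit PSMB8 (2.22) and the class I heavy chain SLA-3 (2.05) led, and NFYC (-0.63), CST3 (-0.33, and -0.51 without pair 3) and the aspartic protease CTSD (-0.31) were lowest. In columns 19 to 23 the class I genes SLA-6 (3.20) and SLA-3 (3.18) and TAP1 (2.80) had the highest differences, and CD1E (-1.90), NFYC (-0.64, and -0.40 without pair 1) and the chaperone CANX (-0.55) were lowest. Without pair 2 the differences of that run were 1.62 for SLA-6, 2.37 for SLA-3 and 1.61 for TAP1, so no order among them is given. All these values come from the highest-mean probe set of each gene. A dimmer NFYC probe set, Ssc.21820.2.S1_a_at, was not lower, with medians of 5.13, 5.15, 5.27 and 5.41 over the runs. Further probe sets of TAP1, SLA-6, CANX and CST3 are not described here.

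The partners of the class II chains followed them in part, and are named here after their values were seen. CD74, the invariant chain, had medians of 7.82, 8.22, 9.10 and 9.92 over the runs, and SLA-DQA1, the alpha chain that pairs with SLA-DQB1, had 10.58, 11.05, 11.74 and 12.46. In columns 19 to 23 these too depended on the pair: CD74 stood 0.50, 2.30 and 2.03 above columns 1 to 6 by pair, with overlap. Its difference of medians fell from 2.11 to 0.26 without pair 2, and that of SLA-DQA1 from 1.88 to 0.50. CIITA had 6.70, 7.14, 7.94 and 7.44. Its pair differences from columns 1 to 6 were -0.43, 0.63 and 1.43, then 1.21, 1.32 and 1.40, and in the last run 0.05, 1.19 and 0.49. In the last run pair 1 thus had the smallest difference for CIITA, as it had for SLA-DRA, SLA-DQB1 and SLA-DRB1. This was not particular to class II genes. Pair 1 was also smallest for TNF (0.78, 4.98 and 1.86) and TAP1 (2.06, 3.39 and 2.54), though not for SLA-3 (2.88, 3.74 and 2.02). SLA-DMB, a chain of the peptide exchange factor DM, had medians of 9.63, 9.50, 10.74 and 11.03, and its last difference from columns 1 to 6 went from 1.40 to 0.32 without pair 2. That of CIITA went from 0.74 to 0.11. These medians without pair 2 again weigh pair 1 above pair 3. By matched pair CD74, SLA-DQA1, SLA-DMB and CIITA were each higher at all 3 positions in columns 19 to 23. The other class II genes of the list did not all follow. SLA-DOA had medians of 5.68, 6.05, 6.10 and 5.96 over the runs. Its pair 1 averaged 5.605 in columns 1 to 6 and 5.598 in columns 19 to 23. RFXANK had medians of 8.88, 8.77, 8.59 and 8.62, and CREB1 had 5.59, 6.19, 6.19 and 6.03. Those of NFYB were 7.364, 7.786, 7.396 and 7.295. SLA-DMA, the partner of SLA-DMB, had probe sets that disagreed. Ssc.13777.1.S1_at had a median of 9.18 in columns 1 to 6 and 10.23 in columns 13 to 18, while Ssc.13777.2.S1_at had 10.18 and 8.77.

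Genes most like each member were found by Pearson correlation over the 23 arrays, with the highest-mean probe set of each gene, and are a description without a test because the arrays share pigs and runs. For SLA-DRA they were SLA-DQB1 (0.991), JAK3 (0.966), UBD (0.963), SLA-DQA1 (0.963) and TMEM176B (0.962). For SLA-DQB1 they were SLA-DRA (0.991), SLA-DQA1 (0.971), JAK3 (0.967), UBD (0.963) and CYP3A29 (0.95). For SLA-DRB1 they were LOC106504372 (0.999), SLA-DQA1 (0.976), CD74 (0.975), SLA-DMA (0.963) and JAK3 (0.946). SLA-DQA1 and JAK3 were in the lists of all 3 chains.

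The class I light chain and the enzymes had other neighbours. B2M was closest to the proteasome activator subunit PSME1 (0.991), then SLA-3 (0.979), RNASE4 (0.972), SLA-2 (0.972) and CALCOCO2 (0.966). CTSS was closest to LGALS9 (0.953), IL27RA (0.952), SP140 (0.948), CFAP36 (0.94) and IFI35 (0.936). LGMN was closest to DLG5 (0.927), TMOD3 (0.893), CNN3 (0.888), SAT1 (0.88) and CD99 (0.866). IFI30 had the loosest neighbours, CCDC167 (0.83), DUSP14 (0.83), BAIAP2L1 (0.815), C1H14orf37 (0.768) and DPCD (0.767). Among the members, each by its highest-mean probe set, SLA-DRA correlated at 0.925 with SLA-DRB1, 0.931 with B2M and 0.87 with CTSS. Its correlation was 0.329 with LGMN and -0.112 with IFI30. These values depend on the probe set. Other B2M probe sets correlated at -0.783 to 0.974 with the B2M one used, and other CTSS probe sets at 0.559 and -0.288 with the CTSS one.

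Markers of other cells were measured on the same arrays. Fewer cells of a type and less RNA per cell cannot be told apart in such bulk samples. Of 10 macrophage markers 6 were measured, 1 of them (MARCO) below the table median, and their summed linear intensity was 22580 to 24340 in columns 1 to 6, 21670 to 24770 in columns 7 to 12, 20130 to 24430 in columns 13 to 18 and 23530 to 25690 in columns 19 to 23. B cells also express class II molecules, and the B cell marker measured, CD79B (1 of 7), stood at 4.10 to 4.51 log2 units, below the table median. Dendritic cell markers (3 of 9) summed to 212 to 262, 254 to 355, 296 to 447 and 234 to 412 over the runs. T and NK cell markers (5 of 8) summed to 148 to 186, 176 to 244, 297 to 601 and 211 to 1542. Granulocyte markers (5 of 7) summed to 1197 to 3759, 1193 to 3065, 2114 to 5858 and 13160 to 15750, and stromal markers (5 of 6) to 436 to 1928, 444 to 1700, 472 to 1445 and 384 to 1156. The granulocyte and the T and NK cell sums reached their highest values in columns 19 to 23, where SLA-DRA was also highest. The genes of these lists did not move as one. CD2 reached 10.45 there while CD3D, CD3E, CD3G and LCK lay between 4.13 and 6.23. Of the granulocyte markers, ELANE alone was lower, with a median of 5.74 there against 7.22 in columns 1 to 6. S100A9 had 13.63 against 10.39 and LTF 7.65 against 5.05. S100A12 had 8.33 against 6.98 and S100A8 9.17 against 8.44. The granulocyte sum rested mainly on S100A9, which read 13.56 to 13.73 log2 units in columns 19 to 23. The macrophage sum rested mainly on AIF1, TYROBP and FCER1G, with means of 12.87, 12.94 and 12.52 log2 units. It hides CD14, with medians of 7.83, 9.44, 9.26 and 9.63 over the runs, and CD163, with 9.37, 9.50, 8.27 and 10.52. Of the dendritic cell markers, CCR7 had medians of 6.25, 6.29, 7.25 and 7.41, and CD1E 6.18, 6.84, 6.46 and 4.28. Of the stromal markers, DCN, LUM and PDGFRB were highest in pair 1 in every run, while COL1A2 and COL3A1 were not. In columns 1 to 6 DCN averaged 8.67 in pair 1 against 5.86 and 5.51 in pairs 2 and 3. PDGFRB averaged 9.34 there against 6.98 and 7.17. In columns 19 to 23 PDGFRB averaged 9.07 in pair 1 against 6.26 and 6.62. Pair 1 also had the smallest SLA-DRA, SLA-DQB1 and SLA-DRB1 differences in that run. The part of all these markers in the member values was not tested.

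The groups as labelled were tested with limma on the means of duplicate cultures, with pig as a block, which asks what the labels alone would show. As labelled, SLA-DRA averaged 11.40 ± 1.60 at 0 h, 11.35 ± 1.60 at 2 h, 11.36 ± 1.27 at 7 h and 10.96 ± 1.07 at 24 h (SD, n = 3 pigs each). The means lay well within the spread between the pigs as labelled. Each labelled pig takes in arrays from different runs of columns, so this SD is not a spread between animals alone. The labelled 24 h difference from 0 h was -0.44 ± 0.41 (SE, limma adjusted p = 0.914). SLA-DQB1 differed by -0.29 ± 0.31 (adjusted p = 0.914) and SLA-DRB1 by -0.67 ± 0.46 (adjusted p = 0.914) in the same limma comparison. The labelled comparison of 2 h with 0 h called 1 member probe set, the dim IFI30 one, at 0.96 ± 0.09 (SE; limma, adjusted p = 0.0261), in a table where 3 probe sets were called in all (0.0125%). That call was lost after quantile normalization (limma, adjusted p = 0.0511) and when any 1 of the pigs was left out (limma, adjusted p from 0.343 to 1.0). The contrast sets even columns against odd columns.

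In the other labelled comparisons 0 member probe sets passed limma's adjusted threshold, against 0.0% of all probe sets for 7 h with 0 h and 0.00417% each for 24 h with 0 h, 7 h with 2 h and 24 h with 7 h. At an unadjusted p under 0.05 the counts of member probe sets were 2 of 20 for 2 h with 0 h (2.17% of all probe sets), 0 for 7 h with 0 h (3.14%), 2 for 24 h with 0 h (4.11%), 2 for 7 h with 2 h (2.97%) and 1 for 24 h with 7 h (4.23%). Of the 35 other pathway genes, 0 were called in any labelled comparison. The dim IFI30 probe set had adjusted p values from limma of 0.0546 for 24 h with 0 h and 0.0719 for 7 h with 2 h. All of these tests rest on labels that did not match the arrays.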

How the data were processed

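Per the submitters' processing notes, the authors used affy and RMA (versions not given in the sources used here) and deposited linear intensity values of 23 arrays, 24123 probe sets, of which 124 controls were left out. Gene names came from GEO's platform annotation: 10069 probe sets had 1 gene, 198 several and 13732 none. Intensities were taken to log2 with no pseudocount, filter or renormalization. Groups came from the labels. limma 3.58.1 in R 4.3.3 was fitted to 12 means of duplicate cultures with time and pig as terms (6 residual degrees of freedom) and Benjamini-Hochberg adjustment over 23999 probe sets at 0.05. It was tested on simulated data. Runs of columns were described only, because their times are inferred. The labels give 3 pigs as replicates, and the pig term takes out constant offsets between them. The p-values therefore rest on how the differences between times varied among the pigs as labelled. Because the labels did not match the arrays, that is not a spread between known animals. The number of arrays limits the precision.

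All member probe sets are reported. Other pathway genes were named by the 3 highest and 3 lowest differences of medians per run, and likeness by the 5 highest correlations. Members and lists were chosen with earlier results of these data known. Alternatives were other blocks, quantile normalization, leaving out dim probe sets, the compared times only, averaged pairs and leaving out each pig or pair (for the other pathway genes this was chosen after seeing the data). No sequences are shown, since they were not used here.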

Additional observations from a re-analysis of the deposited data

Results flagged for a closer look

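Among 80 combinations of a member probe set and a labelled time, 2 held an array far from the other 5 or fewer arrays of its group. Chance would give about 4 if the combinations were independent, but they share arrays. Each labelled group also mixes arrays of different runs of columns, so nothing is concluded from the count. Both flagged combinations concern B2M probe set Ssc.5896.1.S1_at. The array labelled 0 h, pig 3, culture 2 (column 21) read 13.43 where the others of its label read 13.67 to 13.79. The array labelled 2 h, pig 3, culture 2 (column 22) read 13.35 where the others read 13.68 to 13.81. These arrays are neighbours in the table and each other's most similar array.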

How the results depend on the processing

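The labelled comparison of 2 h with 0 h called 3 probe sets, against 30 with a random block for each pig and time (correlation of labelled duplicates -0.153), 19 with only those times and 0 after quantile normalization. For 24 h with 0 h the count was 1, against 2 with no replicate block, 15 with the random block and 0 with quantile normalization or only those times. For 7 h with 2 h it was 1, against 3 with no replicate block, 28 with the random block and 0 with only those times. For 24 h with 7 h it was 1, against 21 with the random block and 0 with only those times. Leaving out a pig gave 0 to 0 in all 4. For 7 h with 0 h it was 0 under every alternative run. Leaving out dim probe sets changed no count by over 1.5 times. The paired structure comes from the labels, where the same 3 pigs appear at each time. Of member probe sets, 1 was called for 2 h with 0 h, but 0 after quantile normalization (IFI30, adjusted p = 0.0511 in limma) and 0 to 0 without a pig. With no replicate block 1 member was called for 24 h with 0 h and 1 for 7 h with 2 h, and with the random block 1 for each of these and 1 for 24 h with 7 h.

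Member probe sets without overlap were 0 in columns 7 to 12 against 1 to 6, and 1 to 2 when a column pair was left out. In columns 13 to 18 against 1 to 6 they were 8, and 5 after quantile normalization. In columns 19 to 23 against 1 to 6 they were 9, and 10 to 14 without a pair. In columns 13 to 18 against 7 to 12 they were 3, 7 with pairs averaged, and 4 to 10 without a pair. Between the last runs they were 0, and 1 to 3 without a pair. Of 60 differences of medians, 4 to 19 moved by over 1 SD of their pair differences when a column pair was left out, 5 after quantile normalization and 8 with pairs averaged. Fewer arrays make overlap less likely. The causes of the other shifts were not tested.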
